A study of Mus musculus with 2 samples.

Results

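The circadian clock genes described here are 10 genes chosen by name from the textbook clock loop: the activators Clock and Arntl, the repressors Per1, Per2, Per3, Cry2, Nr1d1 and Nr1d2, and the output factors Dbp and Tef. All 10 were found among the 43346 Ensembl genes of the deposited tables, with 38 listed transcripts. The RNA came from the heart of a single C57BL/6J mouse, an adult female 10 weeks old, counted as biological replicate 1. Its poly(A) RNA gave 2 libraries, called technical replicates 1 and 2, and the latter was made later than the first publication of the data. There was 1 animal, no treatment and no group to compare. The sources used here do not give the hour at which the heart was taken, so the values are a single unplaced point of the daily cycle. A spread over the 2 libraries is technical.

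In the clock, the proteins CLOCK and BMAL1 (the product of Arntl) pair on E-box DNA elements and switch on the genes of their own inhibitors. PER and CRY proteins accumulate, enter the nucleus and block that pair, while the nuclear receptors REV-ERB alpha and beta (Nr1d1 and Nr1d2) repress Arntl through ROR elements. DBP and TEF are output factors that carry the rhythm to other genes through D-box elements. In heart muscle the clock is known for daily rhythms in fuel use and in ion channel expression. In rodent tissues Arntl peaks in antiphase to Dbp, the Per genes and the Rev-erb genes, so the balance of these arms in a sample depends on the hour.

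Both libraries were deep but unequal. Total estimated counts were 22775991 in replicate 1 and 19685821 in replicate 2, of which 5028154 and 12654724 fell on nuclear genes outside mitochondrial copies. Those nuclear genes held 7.22% of TPM (an abundance corrected for transcript length and scaled to a fixed total per library) in replicate 1 and 39.1% in replicate 2, which lowers every nuclear TPM in replicate 1. Nuclear TPM below means TPM rescaled to these genes alone. The nuclear counts also lay in genes of lower GC content in replicate 1, a mean of 45.0% against 50.5%. All 8 cardiomyocyte markers were present in both libraries, summing to 3157 and 35099 TPM. Markers of other heart cells were present too, with sums of 83.8 and 616 TPM for 6 endothelial, 194 and 922 for 6 fibroblast, 1.46 and 92.6 for 6 macrophage and 72.2 and 5027 for 5 red cell genes, and none at 0. In nuclear TPM the cardiomyocyte sums were 43729 and 89775, the endothelial 1160 and 1575 and the fibroblast 2694 and 2358. In that unit the macrophage sums were 20.2 and 237 and the red cell sums 1001 and 12857. Within a bulk library, fewer cells of a type and less RNA per cell cannot be told apart. Both libraries came from the same heart.

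The activators were expressed in both libraries. Clock (chromosome 5, 76209868 to 76304792, minus strand), a basic helix-loop-helix factor, had 6.19 TPM in replicate 1 and 9.09 in replicate 2, from 1463 and 1282 counts. In nuclear TPM it had 85.8 and 23.3, and it stood above 86.9% and 71.7% of the nuclear genes with a count. Its share of nuclear RNA was thus higher in replicate 1. Arntl (chromosome 7, 113207465 to 113314126, plus strand), its partner, had 2.59 and 10.1 TPM from 228 and 529 counts. It had 35.9 and 25.8 nuclear TPM and stood above 75.4% and 73.7% of those genes, a similar place in both libraries. Clock exceeded Arntl 2.39-fold in replicate 1 (95% exact interval 2.08 to 2.76), while in replicate 2 the ratio was 0.90 (0.82 to 1.00). These intervals, and all others on counts below, cover counting error only.

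**Figure D1:**
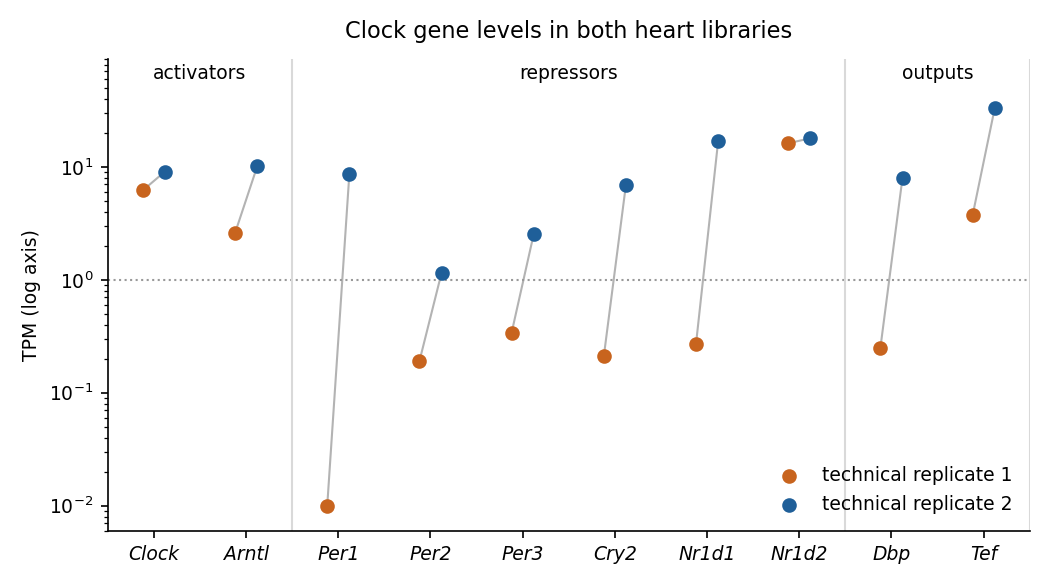
TPM (log axis) of each of the 10 clock genes in technical replicate 1 (orange) and technical replicate 2 (blue), with a grey line joining the same gene and a dotted line at 1 TPM. Nr1d2 lies at 16.2 and 17.9, whereas Per1 runs from 0.010 to 8.63.

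The Period genes, which encode the scaffold proteins of the inhibitory complex, were low in replicate 1. Per1 (chromosome 11, 69095217 to 69109960, plus strand) had 0.010 and 8.63 TPM, from 1 count in replicate 1 and 709 in replicate 2. Only 0.37% of the nuclear genes with a count were lower in replicate 1, against 70.7% in replicate 2. Per1 therefore ranged from the bottom of one library to the upper part of the other. Per2 (chromosome 1, 91415982 to 91459324, minus strand) had 0.19 and 1.15 TPM from 34 and 126 counts, and was the lowest member in replicate 2. Per3 (chromosome 4, 151003652 to 151044665, minus strand), the Period gene least needed for rhythm in mice, had 0.34 and 2.54 TPM from 56 and 242 counts. In nuclear TPM, Per2 (2.63 and 2.94) and Per3 (4.71 and 6.50) were close between the libraries. Per2 stood below Per3 in both, with Per3 over Per2 at 1.86 (95% exact interval 1.19 to 2.93) in replicate 1 and 2.20 (1.77 to 2.75) in replicate 2.

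Cry2 and Nr1d1 were low in replicate 1, whereas Nr1d2 was high in both libraries. Cry2 (chromosome 2, 92403646 to 92434043, minus strand), a cryptochrome that blocks CLOCK and BMAL1 directly, had 0.21 and 6.94 TPM from 24 and 500 counts. Nr1d1 (chromosome 11, 98767932 to 98775333, minus strand) had 0.27 and 16.8 TPM from 22 and 792 counts. Nr1d2 (chromosome 14, 18204054 to 18239127, minus strand) had 16.2 and 17.9 TPM from 2303 and 1427 counts and was the highest member in replicate 1. The paralogues were level in replicate 2, where Nr1d2 over Nr1d1 was 1.06 (95% exact interval 0.97 to 1.16). In replicate 1 the same ratio was 60.4 (39.8 to 96.5). The values of Nr1d1 and Nr1d2 therefore give no single ratio for this heart. Their GC contents differ, at 56.8% and 42.3%.

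The output factors also differed between libraries. Dbp (chromosome 7, 45705088 to 45710203, plus strand) had 0.25 and 8.02 TPM from 6 and 137 counts. Tef (chromosome 15, 81802421 to 81826863, plus strand), which binds the same D-box, had 3.72 and 33.0 TPM from 287 and 1580 counts. Tef was the highest member in replicate 2, above 90.5% of the nuclear genes with a count. It exceeded Dbp in both libraries, 15.2-fold in replicate 1 (95% exact interval 6.88 to 41.6) and 4.11-fold in replicate 2 (3.45 to 4.93). By TPM with 0.1 added, log2 of Dbp over Tef was -3.45 in replicate 1 and -2.03 in replicate 2. With replicate 1 GC-adjusted as described below it was only -0.21 there.

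The order of levels differed between the libraries. In replicate 1 it ran from Nr1d2 (16.2 TPM) through Clock (6.19), Tef (3.72) and Arntl (2.59) to Per3 (0.34), with each of these neighbours apart by more than counting error. Arntl exceeded Per3 7.51-fold (95% exact interval 5.58 to 10.2). Per3, Nr1d1, Dbp, Cry2 and Per2 followed at 0.34 to 0.19 TPM, and no neighbours among them could be told apart. Per1 came last at 0.010 TPM on 1 count, with Per2 over Per1 at 16.8 (95% exact interval 2.81 to 682). In replicate 2 the order was Tef (33.0), Nr1d2 (17.9), Nr1d1 (16.8), Arntl (10.1), Clock (9.09), Per1 (8.63), Dbp (8.02), Cry2 (6.94), Per3 (2.54) and Per2 (1.15). There each adjacent pair from Arntl to Cry2 lay within counting error, although Arntl exceeded Cry2 1.45-fold (95% exact interval 1.28 to 1.64). Nr1d2 and Nr1d1 were not separated either.

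The DNA elements through which the loop is wired were looked up in the 250 bases before RefSeq transcription starts (build GRCm38.p6, which is mm10), on both strands. RefSeq gave 14 windows for 9 of the 10 genes, with no entry for Per2. The windows below are shown because they hold a listed element. Capitals mark the E-box CACGTG, its variant CACGTT, the D-box TTATGTAA or the ROR core AGGTCA, on either strand.
Per1 (chr11:69098699-69098948, plus strand): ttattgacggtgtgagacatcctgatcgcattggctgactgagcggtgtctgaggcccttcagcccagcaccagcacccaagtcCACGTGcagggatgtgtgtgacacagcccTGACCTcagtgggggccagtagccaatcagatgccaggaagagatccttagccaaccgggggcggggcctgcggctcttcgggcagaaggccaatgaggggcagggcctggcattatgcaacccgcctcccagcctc
Tef (chr15:81811164-81811413, plus strand): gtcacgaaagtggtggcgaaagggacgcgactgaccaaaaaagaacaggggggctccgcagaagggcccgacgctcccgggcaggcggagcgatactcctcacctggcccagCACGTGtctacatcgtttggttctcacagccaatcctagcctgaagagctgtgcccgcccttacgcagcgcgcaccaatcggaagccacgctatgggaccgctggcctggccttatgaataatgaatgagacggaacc
Nr1d1 (chr11:98775378-98775627, minus strand): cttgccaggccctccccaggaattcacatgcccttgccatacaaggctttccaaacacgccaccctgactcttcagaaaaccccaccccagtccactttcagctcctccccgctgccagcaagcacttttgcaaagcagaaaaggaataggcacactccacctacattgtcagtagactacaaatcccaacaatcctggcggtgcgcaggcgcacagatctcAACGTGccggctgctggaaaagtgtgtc
Per3 (chr4:151044666-151044915, minus strand): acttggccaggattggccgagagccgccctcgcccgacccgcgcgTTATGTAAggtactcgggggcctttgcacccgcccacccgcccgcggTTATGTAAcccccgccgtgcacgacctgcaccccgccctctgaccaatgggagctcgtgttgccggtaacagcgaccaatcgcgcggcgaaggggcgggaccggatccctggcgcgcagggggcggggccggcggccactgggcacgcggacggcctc
Nr1d2 (chr14:18239107-18239356, minus strand): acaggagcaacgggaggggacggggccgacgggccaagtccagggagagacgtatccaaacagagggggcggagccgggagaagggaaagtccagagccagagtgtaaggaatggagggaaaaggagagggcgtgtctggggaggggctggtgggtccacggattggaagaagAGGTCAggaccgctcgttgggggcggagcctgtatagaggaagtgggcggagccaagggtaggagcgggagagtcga

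The E-box stood 166 to 161 bases before the first Per1 start and in both Tef windows, 127 to 122 and 138 to 133 bases before their starts. Thus 3 of the 14 member windows held it, from 2 of the 9 matched genes, and 6.02% of all 32851 RefSeq windows did. The variant CACGTT was found in Nr1d1, 28 to 23 bases before the start, and in Cry2, 166 to 161 bases before it. These were 2 of 14 member windows, against 3.85% of all windows. The D-box occurred only in Per3 among the member windows, at 205 to 198 and 158 to 151 bases before the start, and 0.82% of all windows held it. The ROR core was in 3 of 14 member windows (1 each of Per1, Nr1d2 and Clock), and in 14.0% of all windows. The longer ROR element ANTAGGTCA and the D-box variant TTACGTAA were in no member window, against 0.55% and 0.11% of all windows. No marked element in the member windows overlapped another. The Arntl and Dbp windows held none of the searched letters. The 50 bases after each start were left out, so elements there, or across the window edge, were not looked for. A match here is a description of letters, not of binding. Of the genes with an E-box, Per1 had 0.010 TPM in replicate 1, on 1 count, and 8.63 in replicate 2. Tef had 3.72 and 33.0.

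Summed over genes, the activator arm was lower than the repressor arm in both libraries. The sums set 2 activators against 6 repressors, so their direction depends on the unequal number of genes. Clock and Arntl together had 8.78 TPM in replicate 1 and 19.2 in replicate 2, and the 6 repressors had 17.2 and 54.0. The repressor sum was thus 1.96-fold and 2.82-fold higher. On the log2 scale activators over repressors averaged -1.23 ± 0.37 (SD over the 2 libraries). In replicate 1 that direction rested on Nr1d2, which made up 54.0% of the summed TPM of the 10 genes. Without Nr1d2 the log2 ratio was 3.11 in replicate 1 and -0.91 in replicate 2, opposite signs with a mean of 1.10. With the median of the genes in place of the sum the mean was 2.25. Each of Per1, Per2, Per3 and Cry2 was below both activators by TPM in both libraries, although Clock and Per1 were within counting error in replicate 2.

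**Figure D2:**
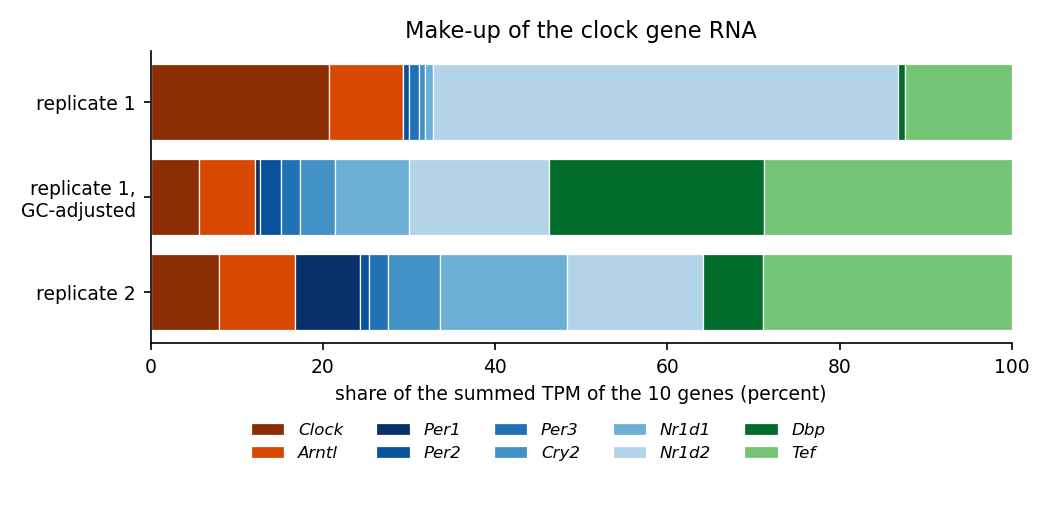
Share (percent) of the summed TPM of the 10 clock genes that each gene took in replicate 1 as deposited, in replicate 1 after the GC adjustment described below, and in replicate 2. Oranges are activators, blues repressors and greens outputs; Nr1d2 took 54.0% in replicate 1 and 15.7% in replicate 2.

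Against the outputs the direction of the activator arm changed with the library. Dbp and Tef together had 3.97 and 41.0 TPM, so the activators were 2.21-fold higher in replicate 1 and the outputs 2.14-fold higher in replicate 2. The mean log2 ratio was 0.02 ± 1.59 (SD, n = 2), a spread far wider than the mean. Over repressors and outputs together the log2 ratio of the activators was -1.27 in replicate 1 and -2.31 in replicate 2, averaging -1.79 ± 0.74. These sums too hold unequal numbers of genes, and with the median of the genes the mean was 2.14. As shares of the 10 genes, activators, repressors and outputs took 29.3%, 57.4% and 13.3% in replicate 1 and 16.8%, 47.3% and 35.9% in replicate 2. After each gene of replicate 1 was shifted by the median library ratio of genes of like GC content, the shares in replicate 1 became 12.1%, 34.2% and 53.7%. In that adjusted library Dbp took 24.9%, a value that rests on 6 counts and on a GC content known for 1 of its 5 listed transcripts.

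Gene by gene, each activator was compared with each of the 8 other members, 16 pairs in all, by TPM with 0.1 added. In 10 pairs the activator was higher in both libraries, in 3 it was lower in both, and in 3 the sign differed. Counted per effective length, the 95% exact interval left out a ratio of 1 in 16 pairs in replicate 1 and in 14 in replicate 2. In 8 pairs the activator was higher by more than counting error in both libraries. The 3 pairs with the activator lower in both were Clock and Arntl against Nr1d2, and Arntl against Tef. Nr1d2 exceeded Clock 2.61-fold in replicate 1 (95% exact interval 2.45 to 2.79) and 1.97-fold in replicate 2 (1.83 to 2.13).

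Pairs of an activator with a Period gene ranged from close to far apart between libraries. Arntl over Per2 was 13.9 (95% exact interval 9.69 to 20.6) in replicate 1 and 8.73 (7.17 to 10.7) in replicate 2, and log2 of TPM with 0.1 added averaged 3.12 ± 0.13 (SD over 2 libraries). After the GC adjustment above, that log2 ratio was 1.32 in replicate 1 against 3.02 in replicate 2, so the small spread depended on the processing. Arntl over Per3 was 7.51 (5.58 to 10.2) and 3.96 (3.398 to 4.634). Clock over Per1 was 559 (100.2 to 22090) and 1.05 (0.96 to 1.16), averaging 2.96 ± 4.08 on that log2 scale. Clock and Per1 were therefore level in replicate 2, the library with more nuclear counts. The sign differed for Nr1d1, which was below Clock 23.1-fold (15.2 to 37.0) in replicate 1 and above it 1.85-fold (1.69 to 2.02) in replicate 2. Arntl over Nr1d1 likewise went from 9.67 (6.23 to 15.7) to 0.60 (0.53 to 0.67). Clock over Tef went from 1.66 (1.46 to 1.89) to 0.28 (0.26 to 0.30).

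**Figure D3:**
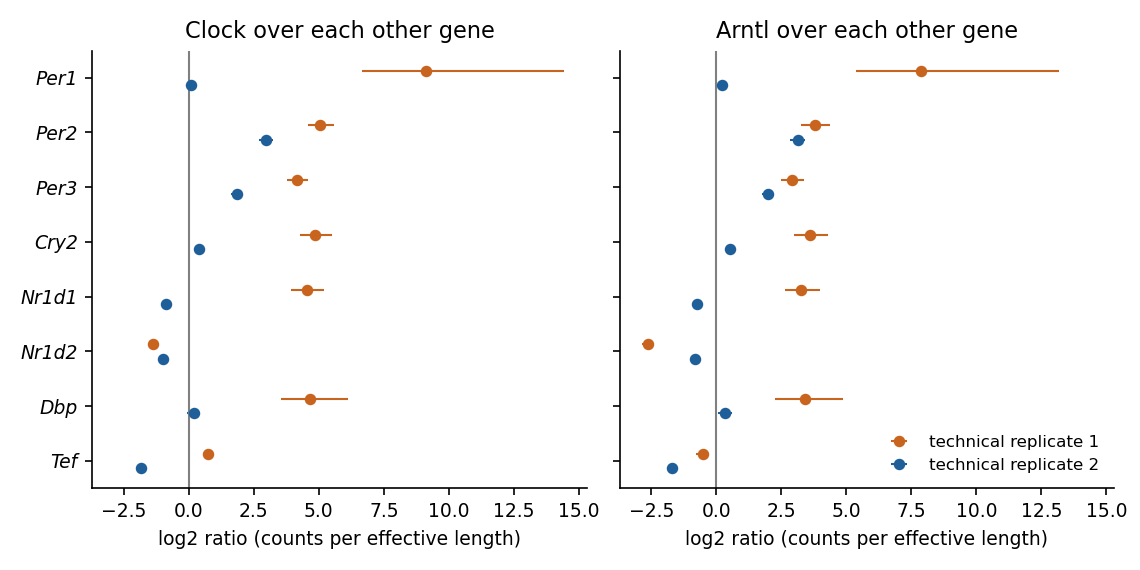
Log2 ratio of Clock (left) and Arntl (right) over each of the other 8 clock genes, from counts per effective length, in replicate 1 (orange) and replicate 2 (blue); lines are 95% exact binomial intervals. Points right of 0 mean a higher activator, and only the Nr1d2 points of both panels and the Tef points of Arntl lie left of 0 in both libraries.

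Tested gene by gene, the members moved in both directions between the libraries. The exact binomial test of edgeR compared replicate 2 with replicate 1 over 13182 genes, and called a gene at 2-fold or more with an adjusted p (Benjamini-Hochberg) under 0.05. Of the 10 members 5 were called higher in replicate 2 (Per1, Cry2, Nr1d1, Dbp and Tef), where 40.5% of all tested genes were. Clock and Nr1d2 were called lower, where 24.0% of all tested genes were, and 3 were not called. These shares are near the background, and the test compares libraries of 1 animal, not conditions. The median log2 ratio was 0.96 over the members and 0.37 over all tested genes.

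The folds, scaled to the libraries' normalized sizes, were largest for Per1, at 285 (95% exact interval 50.9 to 11262). Nr1d1 was 14.5-fold higher in replicate 2 (9.48 to 23.2), Dbp 9.17-fold (4.11 to 25.4), Cry2 8.37-fold (5.56 to 13.2) and Tef 2.21-fold (1.95 to 2.52). Nr1d2 was 4.02-fold (3.76 to 4.30) and Clock 2.84-fold (2.63 to 3.07) higher in replicate 1. Scaled by total counts, mitochondrial RNA included, the median log2 ratio of all tested genes moved from 0.37 to 1.89, and Clock (0.020) and Nr1d2 (-0.48) were then not called lower. Arntl, with the usual scaling, had a ratio of 0.93 (0.80 to 1.09; adjusted p = 0.405, exact binomial test), the smallest difference of the 10. Per2 (1.49, 1.01 to 2.24; adjusted p = 0.0517) and Per3 (1.74, 1.29 to 2.36; adjusted p = 1.6e-04), by the same exact test, were below 2-fold.

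Library ratios of the members ran largely in order of the GC content of their transcripts. Clock (42.1%) and Nr1d2 (42.3%) have the lowest GC content of the 10 and were the members called lower in replicate 2. Arntl (48.2%) was level, Per3 (52.0%) and Tef (52.4%) lay between, and Per2 (54.3%), Cry2 (55.4%), Nr1d1 (56.8%), Per1 (59.1%) and Dbp (61.6%) were the richest. Across the 10 members Pearson r between GC content and log2 ratio was 0.85 and Spearman rho 0.92. Across 13155 tested genes, which share the same 2 libraries, the values were 0.85 and 0.90. The median log2 ratio was -1.89 in the tenth of genes with the lowest GC content and 4.72 in the tenth with the highest.

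**Figure D4:**
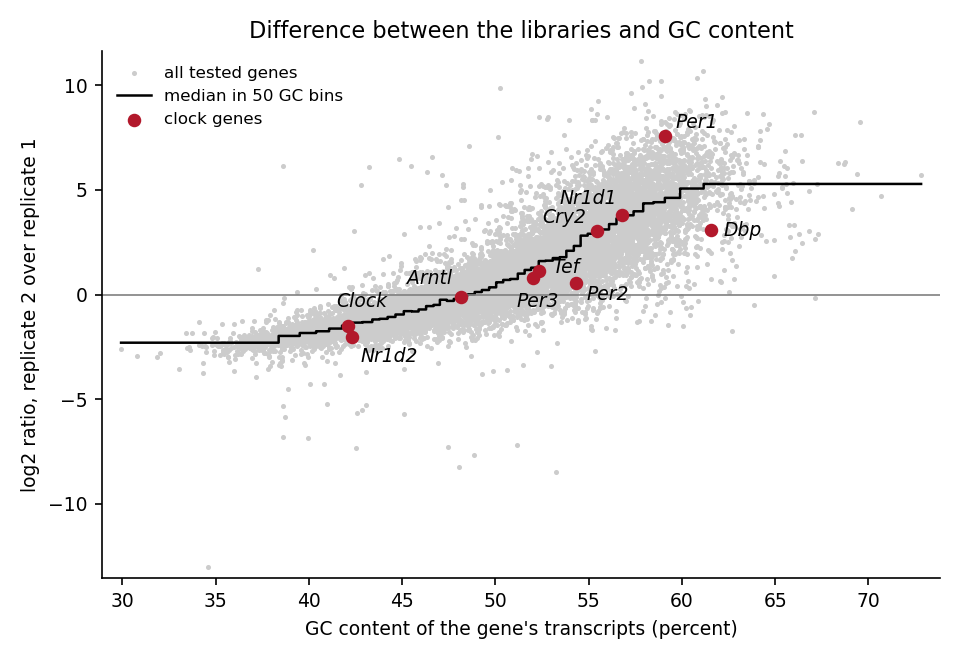
Log2 ratio of replicate 2 over replicate 1 against GC content (percent) for 13155 tested genes (grey), their median in 50 bins of GC content (black) and the 10 clock genes (red). Clock, Arntl, Cry2 and Nr1d1 lie close to the black line; Per1 lies above it, and Per2 and Dbp lie below it.

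With the median of genes of like GC content taken away, 5 members that had differed by 2-fold or more (Clock, Cry2, Nr1d1, Nr1d2 and Tef) differed by less, and Per2 newly passed 2-fold. Clock moved from -1.51 to -0.02 on the log2 scale, Nr1d1 from 3.82 to 0.18, Cry2 from 3.04 to 0.10, Nr1d2 from -2.01 to -0.66 and Tef from 1.14 to -0.46. Nr1d2 and Tef still differed by more than counting error, whereas Clock, Nr1d1 and Cry2 did not. Arntl stayed at -0.07. By that measure 1 member was called higher in replicate 2, Per1 at 2.95, where 10.2% of all tested genes were. Called lower were Per2 at -1.76 and Dbp at -2.20, where 10.8% of all tested genes were. The Per1 value rests on 1 count and the Dbp value on 6 counts in replicate 1. In replicate 1 adjusted in this way, Clock over Nr1d1 was -0.58 and Clock over Tef -2.30 on the log2 scale, the signs seen in replicate 2 (-0.88 and -1.85). The step takes replicate 2 as its reference, so a move of replicate 1 toward replicate 2 is partly built in. The same step turned other pairs away from the sign of replicate 2: Clock over Dbp was -2.09 against 0.18, Arntl over Dbp -1.90 against 0.32 and Per2 over Per3 0.18 against -1.08. Among the 16 activator pairs the sign differed between libraries in 2 after the step and in 3 before it.

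Markers of heart cells also differed between the libraries. Called higher and lower in replicate 2 were 6 and 1 of 8 cardiomyocyte, 3 and 0 of 6 endothelial, 2 and 1 of 6 fibroblast, 5 and 0 of 6 macrophage and 5 and 0 of 5 red cell genes, where 40.5% and 24.0% of all tested genes were. After the GC step the counts were 4 and 0, 2 and 0, 1 and 2, 3 and 0, and 5 and 0 in the same order, where 10.2% and 10.8% of all tested genes were. Their part in the clock gene values was not tested.

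At transcript level, the leading form matched between libraries for 7 of the 10 members, and for 5 by the posterior mean estimate. Clock and Arntl have 1 listed transcript each and so could not differ. Nr1d1-201 carried 100% and 94.8% of the gene's abundance and Nr1d2-201 carried 97.2% and 88.1%. The remainder of Nr1d2 was Nr1d2-202, a retained-intron form, with 2.77% and 11.9%. Cry2-201 carried 84.6% and 96.8%, and 40.7% and 90.9% by the posterior mean, which in replicate 1 placed Cry2-204 first with 44.4%. Per2-201 carried 100% in both, and 26.3% and 57.0% by the posterior mean, which in replicate 1 placed Per2-202 first with 73.7%. Cry2-204 (337 nt) and Per2-202 (231 nt) are short and had 0 estimated counts in both libraries, so their posterior shares do not show that they were expressed. Per3 was steady, with the coding Per3-201 at 60.35% and 60.02% and the non-coding Per3-204 at 29.6% and 35.5%.

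The leading form differed for Per1, Dbp and Tef. The single Per1 count of replicate 1 was assigned to Per1-205, a form marked for nonsense-mediated decay, whereas in replicate 2 the coding Per1-201 carried 79.7% and Per1-202 20.3%. For Dbp an 815-nt transcript led replicate 1 with 86.4% and an 801-nt transcript led replicate 2 with 38.6%; neither has a name in release M21 of the annotation. The coding Dbp-201 carried 0% and 21.5%. For Tef, Tef-201 led replicate 1 with 42.0% against 19.5% in replicate 2, and Tef-202 led replicate 2 with 33.6% against 0%. Both are coding forms. The retained-intron form Tef-203 carried 31.4% and 7.70%.

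Other genes of the clock were described from a list of 24 partners, kinases, ubiquitin ligases and corepressors. Of 23 tested, 8 were called higher and 8 lower in replicate 2 (background 40.5% and 24.0%), with a median log2 ratio of -0.30. After the GC step 3 were called higher and 2 lower, where 10.2% and 10.8% of all tested genes were. Their median was then -0.29. Among the highest by mean nuclear TPM were Csnk2a1, a casein kinase 2 subunit (269 and 89.1 nuclear TPM), the corepressor Ncor1 (189 and 82.2), the PER partner Nono (151 and 86.0), Fbxw11 (55.4 and 38.8) and Csnk1d, the kinase of PER proteins (34.8 and 49.4). None of the 24 was without counts in both libraries.

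Paralogues and partners of the members were compared with them in nuclear TPM. Npas2, which can replace CLOCK, had 5.40 and 5.14 nuclear TPM, below Clock (85.8 and 23.3) in both. Arntl2 had 5.13 and 2.63, below Arntl (35.9 and 25.8). Cry1 had 14.5 and 9.87 nuclear TPM, above Cry2 (2.91) in replicate 1 and below it (17.8) in replicate 2. Hlf, the third D-box activator, had 25.6 and 8.90, below Tef (51.5 and 84.4), and the D-box repressor Nfil3 had 6.93 and 24.8. Rora, a ROR factor that drives Arntl, had 29.4 and 8.11.

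Of 10 genes known as rhythmic outputs in many tissues, 5 were called higher and 3 lower in replicate 2 (background 40.5% and 24.0%). The highest were Nampt, the rate-limiting enzyme of NAD salvage (665 and 154 nuclear TPM), the stress gene Herpud1 (101 and 212), the factor Klf9 (188 and 71.9) and the glucocorticoid-induced Tsc22d3 (158 and 93.8). Their median log2 ratio was 1.16, and -0.38 after the GC step.

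Some member exons overlap genes on the opposite strand. Nr1d1 shares 263 of its 3077 exonic bases with Thra, which had 40 and 1495 counts, and Dbp shares 539 of 2993 with Sphk2, which had 0 and 423 counts. Other overlaps join Cry2 with D930015M05Rik (295 bases) and Tef with Gm17597 (193 bases), each partner with at most 1 count in a library. Arntl shares 33 bases with Gm45355, for which no count was available. The sources used here do not say whether reads were counted by strand. Estimated counts of all 10 members were whole numbers, and whether such partners share reads was not tested.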

How the data were processed

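Both poly(A) RNA-seq libraries of 1 mouse heart were deposited as tables per gene and transcript, on mm10 and annotation M4, as the deposited descriptions state; the sources used here name no programs. The deposited tables hold estimated counts, TPM and FPKM (both per effective length, scaled per library by the authors) and each transcript's share of its gene in percent; effective lengths and posterior means, also deposited, served for ratios and alternatives. Estimated counts of all 10 members were whole numbers. Symbols and coordinates (1-based) are those of GENCODE M21 on the same assembly, which named 42462 of 43346 genes.

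Nuclear TPM leaves out 37 mitochondrial genes and 11 nuclear copies (blastn 2.17.0, at least 95% identity over 90% of the length). Libraries were compared with the exact binomial test of edgeR 4.0.16 (R 4.3.3) on rounded counts with TMM-scaled library sizes, over genes with at least 20 counts, with 0.5 counts added for log2 ratios. The step was tested on simulated counts in which both libraries had the same make-up apart from known changes. That setting lacks the mitochondrial and GC differences of these libraries. GC content is the mean over M21 transcripts weighted by TPM; its trend is the median log2 ratio in 50 bins. Pair intervals are exact binomial at 95% on counts per effective length. Python 3.11.15 with scipy 1.17.1 and pandas 2.3.3 was used.

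Members and lists were chosen with earlier results of these data known. All 10 members are named; of other clock genes, the 6 highest by mean nuclear TPM, any with no count and partners of members; of rhythmic outputs, the 4 highest. Some genes that this rule selects are not reported here. Alternatives covered the abundance estimate, pseudocount, scaling, filter, GC trend, arm summary and single libraries.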

Additional observations from a re-analysis of the deposited data

How the results depend on the processing

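No paired analysis was possible because both libraries belong to 1 group of 1 animal. The ratio of activators over repressors and outputs (-1.79, log2) became -2.58 with the GC trend removed, -0.60 without Nr1d2 and 2.14 by the median of the genes. Activators over repressors (-1.23) became 2.25 by the median and 1.10 without Nr1d2. Activators over outputs (0.02) became -0.21 by posterior mean TPM, -1.62 with the GC trend removed, -1.02 with it removed and Dbp left out, and 3.20 without Tef. Without 1 library it ranged from -1.10 to 1.15. The steps without Nr1d2 and without Dbp were chosen after seeing the data.

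Pairs with the activator lower in both libraries numbered 3, and 6 with the GC trend removed; in a single library they numbered 3 to 6. The GC step turned the mean log2 ratio of Clock over Nr1d1 to -0.73, Clock over Dbp to -0.96, Arntl over Nr1d1 to -0.57, Arntl over Dbp to -0.79, Clock over Arntl to -0.17 and Per1 over Per3 to 0.15. Per1 over Per3 also turned to 0.37 by posterior mean TPM and 0.52 with a pseudocount of 1, Per2 over Per3 to 0.17 by posterior mean TPM, and Per1 over Per2 to -0.21 with a pseudocount of 0.01. In single libraries Clock over Nr1d1 ranged from -0.88 to 4.09, Clock over Tef from -1.85 to 0.72, Arntl over Nr1d1 from -0.74 to 2.86, Clock over Arntl from -0.15 to 1.23, Per1 over Per2 from -1.40 to 2.80 and Per1 over Per3 from -2.00 to 1.73.

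Scaling by total counts, which includes mitochondrial RNA, called 8670 genes higher and 139 lower in replicate 2 (5338 and 3158 with TMM), with 8 and 0 members by the edgeR exact binomial test (1 lower, Nr1d2, at an unadjusted p under 0.05), and turned Clock to 0.020 and Arntl to 1.42. That scaling moved the median of all tested genes from 0.37 to 1.89. The GC step called 1342 genes higher and 1427 lower, with 1 member higher, and turned Per2 to -1.76, Per3 to -0.50, Dbp to -2.20 and Tef to -0.46. With no limit on the fold, 4765 genes were lower. At 1 TPM or more in both libraries stood 4 members, and 9 at 1 nuclear TPM. Few counts in replicate 1 limit the precision of Per1 (1 count), Dbp (6), Nr1d1 (22) and Cry2 (24).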
